A study of Mus musculus with 6 samples.

Results

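The expression of 10 genes of the Lin28 and let-7 axis was followed by RNA-seq in E14, an embryonic stem cell line of the mouse. The 10 were set by name as Lin28, Igf2bp, microRNA-processing and let-7 target genes (Lin28a, Lin28b, Igf2bp2, Igf2bp3, Dicer1, Drosha, Dgcr8, Ago2, Trim71 and Hmga2) and found through their Ensembl identifiers among the 52636 genes in the count tables. Of these 10, 9 had enough counts to be tested, and Dgcr8 was listed at 0 in every library. There were 3 libraries of enhancer cluster-KO cells (KO) and 3 libraries of wild-type cells (WT), which the series' design text calls biological replicates. Both groups had been treated for 4 days with retinoic acid, a metabolite of vitamin A under which stem cells leave self-renewal, at 5 µM (µm in the labels), after withdrawal of LIF and of inhibitors of MEK and GSK3. The series title places the enhancer cluster upstream of HoxB activation and neural progenitor formation. How many KO clones were used and where the deletion lies was not stated in the sources used here. Gene counts per library ranged over 7780368 to 8521902 in KO and 8208615 to 9472916 in WT.

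Lin28a and Lin28b are RNA-binding proteins that hold back the maturation of let-7, a family of microRNAs that accumulates as stem cells differentiate. A microRNA is cut from its primary transcript in the nucleus by Drosha with its RNA-binding partner Dgcr8, exported by exportin 5, cut again by Dicer1, and loaded into an Argonaute protein such as Ago2, which silences matching mRNAs. Lin28a, Lin28b, Trim71, Hmga2 and the Igf2bp genes are themselves known let-7 targets, so that Lin28 and let-7 oppose each other. Trim71 is a stem cell RNA-binding protein and ubiquitin ligase, Hmga2 is a chromatin protein of embryonic cells, and the Igf2bp proteins bind and stabilise mRNAs.

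All 9 mature let-7 and miR-98 sequences of the 5′ arm in RefSeq (GRCm38.p6) share 1 seed, the bases from 2 to 8 that pair with a target, shown in capitals for 4 of them because the matches below are read from it.
let-7a-5p: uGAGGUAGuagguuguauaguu
let-7c-5p: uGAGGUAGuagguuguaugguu
let-7d-5p: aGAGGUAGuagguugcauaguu
let-7g-5p: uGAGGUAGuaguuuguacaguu

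The precursor carries the motif through which Lin28 proteins are known to hold it, GGAG, in the loop between the arms. On the transcribed strand GGAG lay between the annotated arms in 9 of 12 let-7 and miR-98 hairpins, and it occurred anywhere in 44.5% of 1005 mouse hairpins. The let-7g hairpin (chr9:106178840-106178927, plus strand) holds it, in capitals, and the let-7c-2 hairpin (chr15:85706603-85706697, plus strand) has no such match.
let-7g hairpin: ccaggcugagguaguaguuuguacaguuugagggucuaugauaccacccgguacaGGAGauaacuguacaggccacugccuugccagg
let-7c-2 hairpin: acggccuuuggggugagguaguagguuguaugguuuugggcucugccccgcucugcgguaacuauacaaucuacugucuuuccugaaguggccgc

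The seed pairs with CTACCTCA, an 8-base match that includes the A opposite the first base of let-7. It was searched on the transcript strand in the longest annotated 3′ UTR of each gene (GENCODE M21). It occurred in 7 of the 10 members, against 3.06% of all 21037 genes with a 3′ UTR and 3.77% of the 13197 tested ones. Several members were chosen as known let-7 targets, so this share describes the choice. The members' 3′ UTRs are long, with a median of 2894.5 bases against 960.0 bases for all genes. Trim71 had 4 matches, Lin28a had 2, and Lin28b, Igf2bp2, Igf2bp3, Ago2 and Hmga2 had 1 each. Hmga2, with 7 matches of at least 7 bases (CTACCTC or TACCTCA, counted once where they overlap), had the most of any member by this looser count. Dicer1, Drosha and Dgcr8 had no match to either 7-base form. For each of the 7 members the site nearest the stop codon is shown, since the results below refer to these genes, with 14 bases before each match and the match in capitals. All lie on the minus strand.
Lin28a, chr4:134005189-134005210: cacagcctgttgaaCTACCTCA
Lin28b, chr10:45381022-45381043: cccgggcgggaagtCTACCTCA
Igf2bp2, chr16:22059473-22059494: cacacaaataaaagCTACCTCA
Igf2bp3, chr6:49086787-49086808: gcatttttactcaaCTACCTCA
Ago2, chr15:73097982-73098003: tttacaatgtggatCTACCTCA
Trim71, chr9:114512472-114512493: acattgcctaagtcCTACCTCA
Hmga2, chr10:120364224-120364245: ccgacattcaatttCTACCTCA

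**Figure D1:**
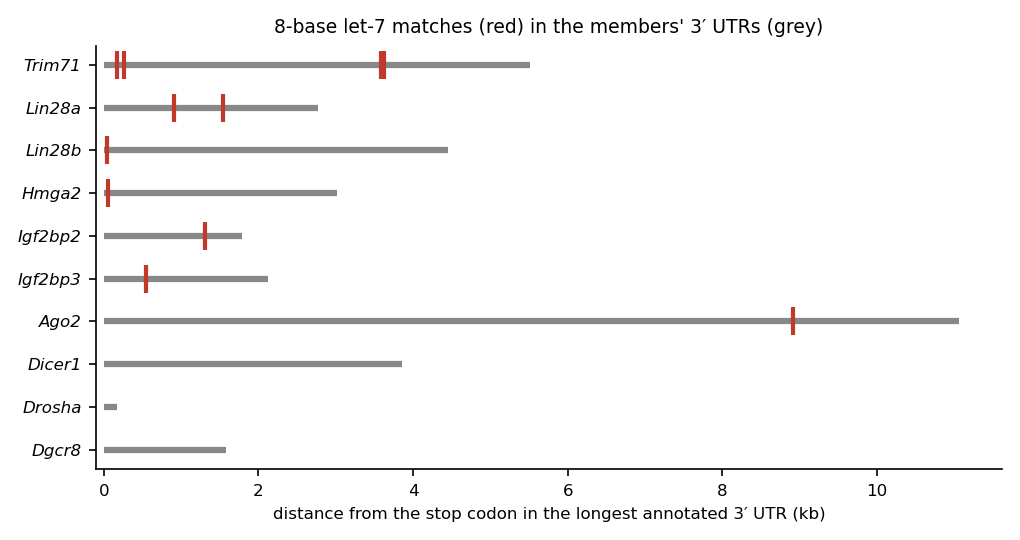
Each grey bar is the longest annotated 3′ UTR of a member, drawn to scale in kb from the stop codon, and each red tick is a CTACCTCA match. Trim71 carries 4 ticks and Lin28a 2, while Dicer1, Drosha and Dgcr8 carry none.

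Mature let-7 itself was not measured. The 12 let-7 and miR-98 hairpin genes held 1, 0 and 1 reads in KO libraries and 0, 3 and 0 reads in WT libraries. Of these loci 9 had no read in any library.

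The groups differed widely, which sets how the members are read. Of 15816 genes tested with edgeR's quasi-likelihood test and Benjamini-Hochberg adjustment over all of them, 68.6% passed an adjusted p of 0.05, 34.5% higher in KO and 34.0% lower. Expression is given as CPM, the counts of a gene scaled to a common library size, after TMM scaling, and log2 fold changes are KO over WT with their SE. Of 12 endoderm markers, 9 were higher and 1 lower in KO. Their summed level was 4954 to 5078 CPM in KO against 1693 to 1709 CPM in WT. Lamb1 and Cubn supplied most of that sum, with means of 2900 and 1038 CPM in KO and 875 and 222 CPM in WT. Sox17 fell, and Foxa2 and Ttr did not pass, all named after their values were seen. Of 14 neural markers 8 could be tested, with 2 higher and 5 lower and a sum of 153.1 to 163.1 CPM in KO against 537.6 to 567.0 CPM in WT. Nes, at a mean of 33.6 CPM in KO and 231.4 CPM in WT, Cdh2, Sox2, Tubb3 and Sox3 fell, and Pax6 and Msi1 rose. Fabp7 was at 0 in every library, and Sox1 had 14, 10 and 21 counts in KO and 12, 23 and 17 counts in WT. Sox3, Pax6, Msi1, Fabp7 and Sox1 were singled out after their values were seen. Of 10 pluripotency markers 9 could be tested, with 3 higher and 6 lower and a sum of 569.0 to 581.7 CPM in KO against 768.5 to 812.7 CPM in WT. Of 8 mesoderm markers 4 could be tested, with 1 higher and 2 lower. The part of these marker differences in the members' differences was not tested. KO replicate 1 stood apart, with a chi-square per degree of freedom of 6.03 and 7.23 against the other KO libraries, where all other pairs within a group gave 1.90 to 2.41.

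Of the 9 tested members, 2 rose in KO (Lin28a and Igf2bp2), 3 fell (Lin28b, Drosha and Hmga2) and 4 did not pass the test (Igf2bp3, Dicer1, Ago2 and Trim71). This share, 55.6%, lay below the 68.6% of all tested genes, so the members as a group did not change more often than other genes. Their median log2 fold change was -0.04, against 0.01 for all tested genes. The KO and WT values did not overlap in 5 of the 9, the same 5, against 70.9% of all tested genes. In bulk RNA a smaller share of cells with a transcript and less transcript per cell cannot be told apart, here or below.

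**Figure D2:**
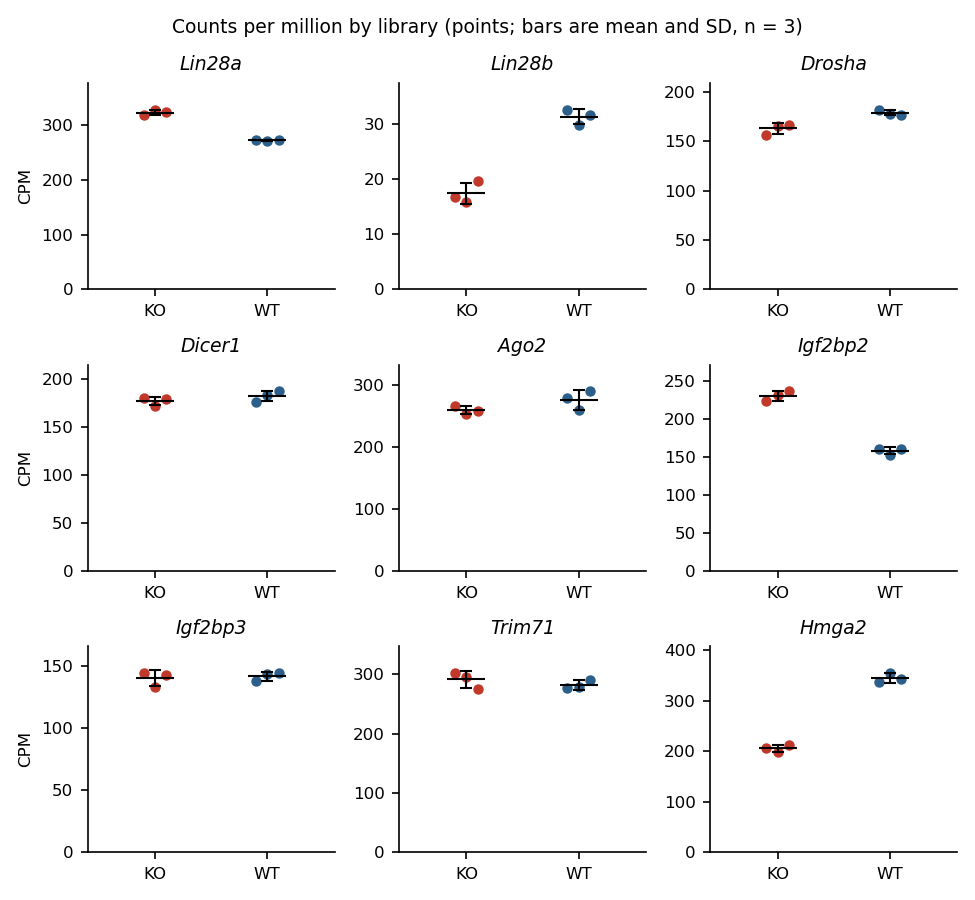
Points are the CPM of each library (y axis, from 0) in KO and WT for the 9 members with counts, and black bars are mean and SD (n = 3). The KO points lie above all WT points for Lin28a and Igf2bp2 and below them for Lin28b, Drosha and Hmga2. The ranges of the groups overlap for the other 4.

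The Lin28 paralogs moved in opposite directions. Lin28a (ENSMUSG00000050966, chr4:134003330-134018841) stood at 318.5, 328.4 and 324.2 CPM in KO, against 272.8, 272.2 and 273.6 CPM in WT. Every KO library was above every WT library, and Lin28a rose by 0.25 on the log2 scale (SE 0.039), a 1.19-fold difference (edgeR adjusted p = 4.34e-06). Lin28b (ENSMUSG00000063804, chr10:45376620-45486395) stood at 16.7, 15.8 and 19.6 CPM in KO, against 32.5, 29.8 and 31.7 CPM in WT. Here every KO library was below every WT library, and Lin28b fell by 0.84 (SE 0.11; edgeR adjusted p = 2.07e-07). Per kilobase of exon, Lin28b made up 2.31 ± 0.257% of Lin28 transcripts in KO and 4.82 ± 0.198% in WT (SD, n = 3 each), so Lin28a supplied nearly all of the family's signal in both groups. The summed Lin28 level per kilobase was 82.9 ± 1.24 in KO and 71.7 ± 0.305 in WT. Of the exon length of Lin28a, 5.86% is overlapped by Gm13061 on the opposite strand, and Lin28b has no such overlap.

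The nuclear cleavage step gave a small difference. Drosha (ENSMUSG00000022191, chr15:12824815-12935291), the nuclease of the Microprocessor, stood at 156.7, 165.7 and 166.9 CPM in KO, against 181.8, 177.8 and 176.9 CPM in WT. The groups did not overlap, and Drosha fell by 0.13 (SE 0.044; edgeR adjusted p = 0.00979). This call was lost without KO replicate 1 (adjusted p = 0.0515) and with upper-quartile scaling (adjusted p = 0.0563).

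Dgcr8 (ENSMUSG00000022718, chr16:18253948-18289246), the RNA-binding subunit of the Microprocessor, was listed at 0 in all 3 KO and all 3 WT libraries. The zeros were not limited to it. From Vpreb2 to Tango2 (chr16:17980428-18348103), a stretch chosen after its values were seen, all 15 genes in the files were listed at 0 in every library, among them 10 coding genes. These include Ranbp1, a regulator of the Ran transport cycle used in all cells, Trmt2a, a tRNA methyltransferase, and Zdhhc8, a palmitoyltransferase. On one side Slc25a1, the mitochondrial citrate carrier, had 465, 445 and 486 counts in KO and 420, 510 and 402 counts in WT. Arvcf on the other side, a catenin, had 37, 121 and 20 counts in KO and 64, 165 and 57 counts in WT. No level of Dgcr8 in these cells can be read from the listed zeros, and their cause was not tested.

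Dicer1 and Ago2, which act after nuclear cleavage, did not pass the test. Dicer1 (ENSMUSG00000041415, chr12:104687742-104751952) stood at 180.2, 172.2 and 179.1 CPM in KO, against 176.4, 183.7 and 187.0 CPM in WT. Its groups overlapped, at a log2 fold change of -0.04 (SE 0.044; edgeR adjusted p = 0.406). Ago2 (ENSMUSG00000036698, chr15:73095844-73184935), the Argonaute that can itself cut target RNA, stood at 266.3, 253.1 and 257.9 CPM in KO, against 279.0, 258.6 and 289.2 CPM in WT. Its groups overlapped through WT replicate 2, at a log2 fold change of -0.09 (SE 0.045; edgeR adjusted p = 0.0817). Without WT replicate 2 the value was -0.14 with an adjusted p of 0.0161, and without KO replicate 1 it was -0.11 with an adjusted p of 0.0411.

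The other Argonaute genes lie side by side on chromosome 4. Of these, Ago4 rose by 1.33 (SE 0.16; edgeR adjusted p = 7.58e-08), with 15.3, 17.8 and 15.2 CPM in KO against 5.68, 5.74 and 7.85 CPM in WT. Ago3 rose by 0.34 (SE 0.094), and Ago1, at -0.10 (SE 0.078), did not pass. Per kilobase of exon, Ago2 made up 63.5 ± 0.472% of the family in KO and 68.0 ± 1.90% in WT, and Ago4 made up 7.99 ± 0.902% in KO and 3.19 ± 0.474% in WT (SD, n = 3 each). The summed Argonaute level per kilobase was 29.1 ± 0.628 in KO and 28.9 ± 1.24 in WT, a difference smaller than the spread between libraries.

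The Igf2bp genes each behaved differently. Igf2bp2 (ENSMUSG00000033581, chr16:22059009-22163299) stood at 223.3, 230.6 and 235.8 CPM in KO, against 160.4, 152.7 and 160.7 CPM in WT. All KO libraries were above all WT libraries, and Igf2bp2 rose by 0.54 (SE 0.044), a 1.46-fold difference (edgeR adjusted p = 2.97e-11). Igf2bp3 (ENSMUSG00000029814, chr6:49085223-49214957) stood at 144.7, 133.1 and 143.2 CPM in KO, against 138.0, 143.5 and 144.4 CPM in WT. These overlapped, at a log2 fold change of -0.02 (SE 0.047; edgeR adjusted p = 0.768), and 18.7% of its exon length is overlapped by Malsu1 on the opposite strand.

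The third family member, Igf2bp1 (ENSMUSG00000013415, chr11:95957163-96005940), is not among the 10 and lies 188.4 kb from the nearest HoxB gene. It stood at 347.1, 347.4 and 317.0 CPM in KO, against 619.4, 579.8 and 592.4 CPM in WT, and fell by 0.82 (SE 0.040; edgeR adjusted p = 1.17e-15). Per kilobase of exon, Igf2bp1 made up 41.9 ± 1.77% of the family in KO and 61.4 ± 0.846% in WT, whereas Igf2bp2 made up 37.4 ± 1.38% in KO and 21.2 ± 0.296% in WT (SD, n = 3 each). The summed level of the family per kilobase was 83.1 ± 0.827 in KO and 100.4 ± 2.23 in WT. No pair of KO and WT libraries overlapped in these shares. With 3 libraries a group, the smallest two-sided p of an exact permutation test is 0.1, so the shares were not tested.

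**Figure D3:**
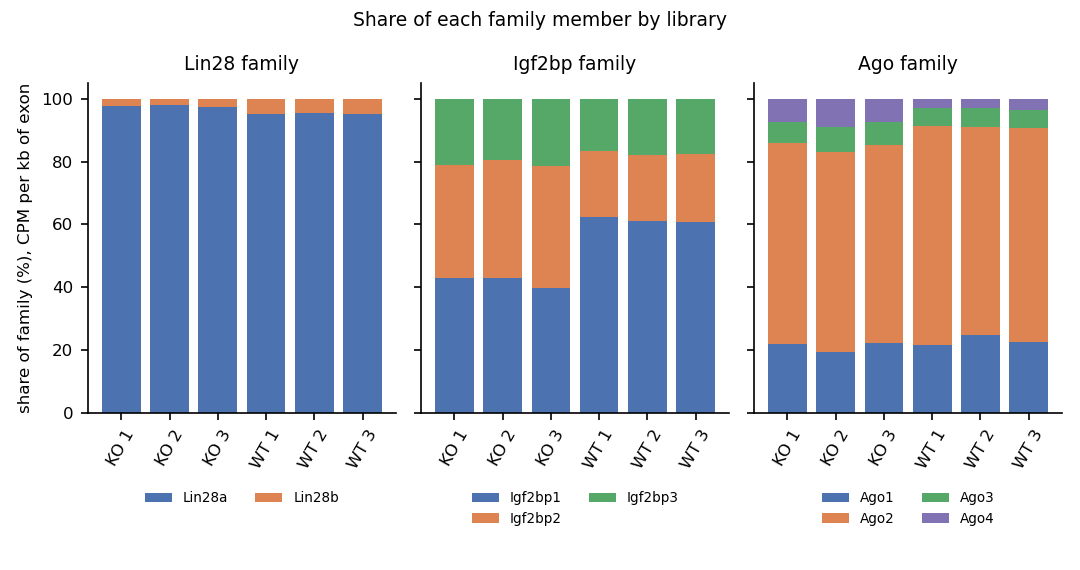
Stacked bars give, for each library, the share (%) of each gene in its family after dividing CPM by kilobases of exon, for Lin28, Igf2bp and Ago genes. The Igf2bp1 share is 39.9 to 43.0% in the 3 KO libraries and 60.8 to 62.4% in the 3 WT libraries.

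The let-7 targets Hmga2 and Trim71 were unlike each other. Hmga2 (ENSMUSG00000056758, chr10:120361275-120476469) stood at 207.7, 198.0 and 212.7 CPM in KO, against 336.8, 355.3 and 343.9 CPM in WT. All KO libraries were below all WT libraries, and Hmga2 fell by 0.74 (SE 0.042; edgeR adjusted p = 2.85e-14), the smallest adjusted p among the members. Its paralog Hmga1 was at 63.1 ± 9.83 CPM in KO and 112 ± 5.12 CPM in WT (SD, n = 3 each) and fell by 0.83 (SE 0.072). Reads of Hmga1 may be shared with near-identical copies elsewhere in the genome, so its counts are uncertain. Trim71 (ENSMUSG00000079259, chr9:114507133-114564369), the member with the most 8-base matches, stood at 302.6, 296.5 and 276.2 CPM in KO, against 276.4, 278.9 and 291.3 CPM in WT. The groups overlapped, at a log2 fold change of 0.05 (SE 0.043; edgeR adjusted p = 0.331).

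**Figure D4:**
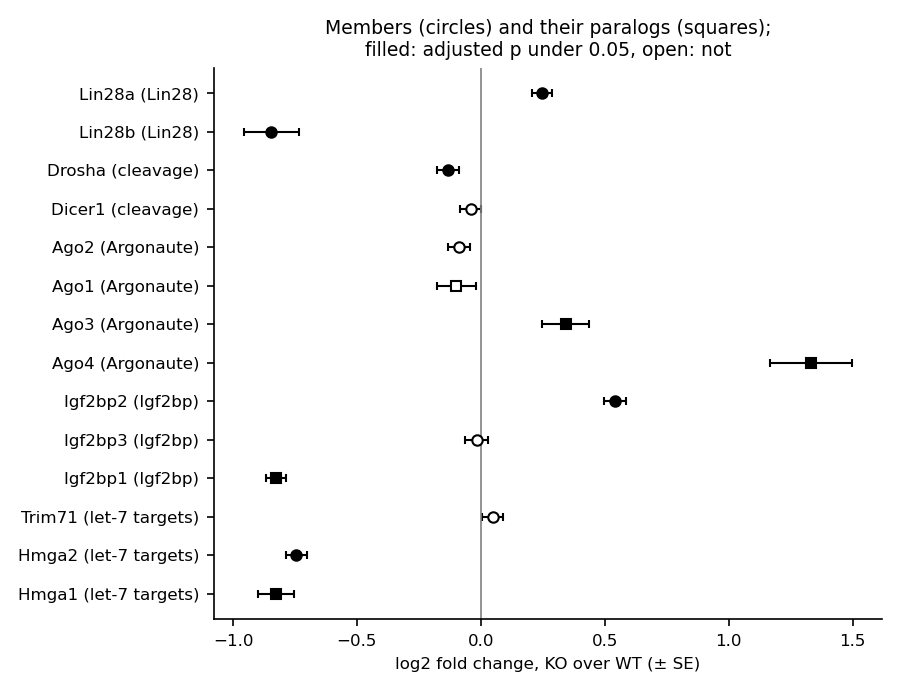
Log2 fold changes, KO over WT (x axis), with SE bars for the 9 tested members (circles) and 5 paralogs (squares), filled where the adjusted p was under 0.05. Lin28b, Igf2bp1, Hmga2 and Hmga1 sit between -0.84 and -0.74, and Ago4 sits at 1.33.

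Levels per kilobase of exon put Lin28a first in both groups, at 81.0 ± 1.25 CPM per kb in KO and 68.3 ± 0.184 in WT, and Lin28b last, at 1.92 ± 0.214 in KO and 3.46 ± 0.155 in WT (SD, n = 3 each). In KO, Trim71 (31.3 ± 1.48), Igf2bp2 (31.1 ± 0.849) and Hmga2 (30.4 ± 1.10) followed, and neighbours in that order did not differ beyond their spread. In WT, Hmga2 came second at 51.0 ± 1.38, ahead of Trim71 (30.2 ± 0.858) and Drosha (30.1 ± 0.432), which overlapped. The order from Ago2 through Igf2bp3 and Dicer1 to Lin28b was the same in both groups, and no neighbours in it overlapped.

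Other genes of precursor processing mostly fell. Of 15 tested, 12 fell (80.0%, against 34.0% of all tested genes) and 2 rose (13.3%, against 34.5%), with a median log2 fold change of -0.50 against 0.01 for all tested genes. Xpo5, the exportin of microRNA precursors, was at 77.5 ± 1.81 CPM in KO and 155 ± 9.88 CPM in WT (SD, n = 3 each) and fell by 1.00 (SE 0.052; edgeR adjusted p = 4.10e-15). Ran, the GTPase that exportins need, fell by 0.92 (SE 0.033), and Ncbp2, a cap-binding subunit, fell by 1.39 (SE 0.068). Of the helicases, Ddx5 fell by 0.63 (SE 0.029) and Dhx9 by 0.86 (SE 0.039). The Dicer partners differed in direction, with Tarbp2 lower by 0.57 (SE 0.064) and Prkra higher by 0.63 (SE 0.10). Many of these proteins also act in splicing, transport and other RNA pathways. Xpo5, Tarbp2 and Prkra were singled out after their values were seen.

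Genes of the silencing complex and its deadenylation partners moved both ways, with 10 that rose and 8 that fell of 24 tested (median 0.03). These shares, 41.7% higher and 33.3% lower, were near the 34.5% and 34.0% of all tested genes. The 24 include Ago1, Ago3 and Ago4, already given above, and Ago3 and Ago4 are among the 10 that rose. Pan2, the catalytic subunit of a deadenylase, rose by 1.01 (SE 0.048) and its partner Pan3 by 0.56 (SE 0.060). Of the 3 Tnrc6 genes, which encode the Argonaute scaffold, Tnrc6b rose by 0.62 (SE 0.057), while Tnrc6a fell by 0.24 (SE 0.047) and Tnrc6c fell by 0.15 (SE 0.051). The Tnrc6c call was lost without KO replicate 1 (edgeR adjusted p = 0.0737), with upper-quartile scaling (edgeR adjusted p = 0.0604) and with DESeq2 (adjusted p = 0.0513). Pan3 and the Tnrc6 genes were singled out after their values were seen. Eif4e2, a cap-binding translational repressor, fell by 1.17 (SE 0.048), and the chaperone gene Hsp90aa1 fell by 0.61 (SE 0.028). Pabpc1, the main cytoplasmic poly(A)-binding protein, rose by 0.31 (SE 0.026).

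Genes that control let-7 itself were split, with 6 higher and 6 lower of 13 tested (median 0.13). This is 46.2% in each direction, against 34.5% higher and 34.0% lower among all tested genes. Hnrnpa1 and Khsrp, among the 6 lower, were also counted with the precursor processing genes above, and are named only for that reason. Tut4 and Tut7, which add uridines to the precursor, rose by 0.56 (SE 0.051) and 0.20 (SE 0.058), and Dis3l2, which degrades the uridylated precursor, was at 38.1 ± 3.39 CPM in KO and 19.4 ± 1.67 CPM in WT (SD, n = 3 each) and rose by 0.98 (SE 0.10; edgeR adjusted p = 5.89e-09). Tent2, another terminal nucleotidyltransferase, did not pass, at 0.13 (edgeR adjusted p = 0.0625), but passed without KO replicate 1 (adjusted p = 0.0451), without WT replicate 2 (adjusted p = 0.0271) and with upper-quartile scaling (adjusted p = 0.0179). Tut7, Dis3l2 and Tent2 were singled out after their values were seen. Zswim8, a ubiquitin ligase subunit of microRNA decay, fell by 0.50 (SE 0.044), and the RNA-binding genes Syncrip and Ddx3x fell by 0.61 (SE 0.044) and 0.41 (SE 0.032).

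Known let-7 targets beyond the members were mostly lower. Of 31 listed, among them Igf2bp1 and Hmga1, 30 could be tested, and of these 21 fell (70.0%, against 34.0% of all tested genes) and 6 rose (20%, against 34.5%), with a median of -0.38. The 8-base match was present in 15 of the 31 and a 7-base form in 27, and Myc and Hras were among those with neither. The smallest adjusted p values belonged to Thbs1, an extracellular matrix protein (-3.47, SE 0.059), Ccnd1, encoding cyclin D1 (-3.78, SE 0.11), Myc (-4.38, SE 0.13) and Cdk6, a cyclin D-dependent kinase (-2.44, SE 0.100). For Ccnd1, 23.4% of the exon length is overlapped by a gene on the opposite strand. The GTPase genes Hras and Nras fell by 1.22 (SE 0.079) and 0.14 (SE 0.046). Ccnd2, the cyclin D paralog, rose by 0.45 (SE 0.064). Hras, Nras and Ccnd2 were singled out after their values were seen.

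The 498 tested genes with CTACCTCA in the 3′ UTR included 194 that rose (39.0%) and 186 that fell (37.3%). These shares were near the 36.3% higher and 35.8% lower among the 13197 tested genes with a 3′ UTR. The median log2 fold change of the 498 genes was 0.03, against 0.01 for the 13197. Their 3′ UTRs were longer, with a median of 2444 bases against 1192 bases. Among the 28 genes with 2 or more matches, 9 rose (32.1%) and 11 fell (39.3%), with a median of 0.02. With either 7-base form, 855 rose (37.6%) and 809 fell (35.6%) of 2273, also with a median of 0.02. The difference between this set and the list of known targets, which share genes, was not tested.

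**Figure D5:**
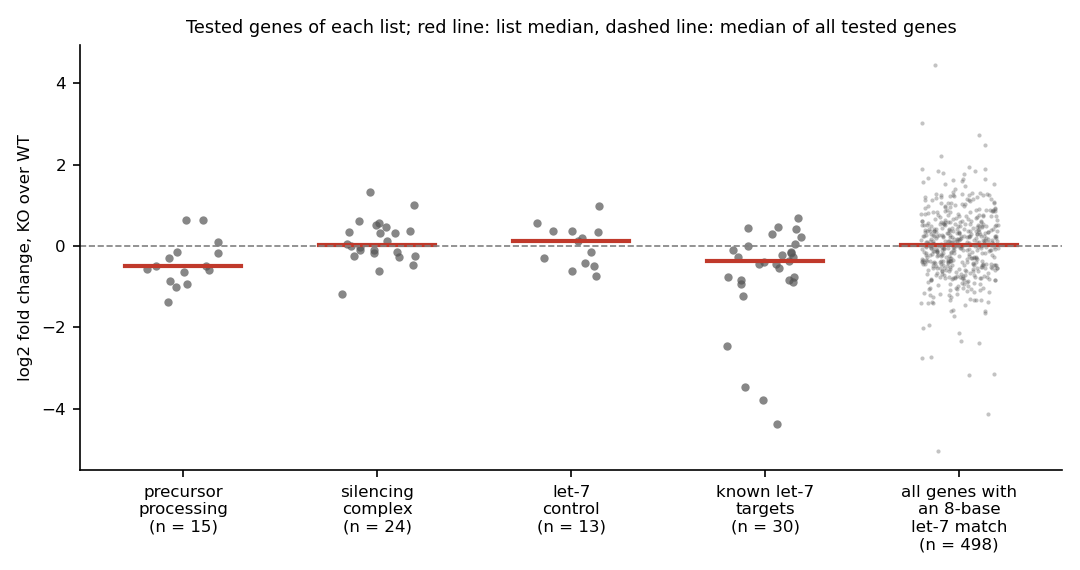
Each point is the log2 fold change, KO over WT, of a tested gene in 4 gene lists and in the set of all genes with an 8-base let-7 match. Red lines are list medians (-0.50, 0.03, 0.13, -0.38 and 0.03 from left to right), and the dashed line is the median of all tested genes.

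Of 10 tested host transcripts and hairpin genes of microRNAs, 6 fell (60.0%, against 34.0% of all tested genes) and 2 rose (20%, against 34.5%). Their median was -0.98. The hairpin genes among them were Mir196a-1, which fell, and Mir703, which did not pass, both singled out after their values were seen. Mir196a-1 (chr11:96265164-96265265), on the chromosome of the HoxB genes, had only 2, 3 and 6 counts in KO and 29, 48 and 26 counts in WT. Counts were also low for Mir124a-1hg (17, 4 and 7 in KO, 30, 26 and 19 in WT). Mir9-3hg had 2, 6 and 7 counts in KO and 24, 25 and 19 counts in WT. Mir124a-1hg and Mir9-3hg both fell and were singled out after their values were seen. Mir22hg was at 3.17 ± 0.389 CPM in KO and 22.9 ± 2.86 CPM in WT (SD, n = 3 each) and fell by 2.84 (SE 0.17; edgeR adjusted p = 9.72e-14). Mir17hg, the host of the miR-17 cluster, fell by 1.63 (SE 0.18). Mcm7 and Ctdsp2, coding genes with microRNAs in their introns, were at -0.65 (SE 0.045) and 0.58 (SE 0.045). The coding hosts of let-7g and of let-7f-2 with miR-98 moved apart, as Wdr82 fell by 0.37 (SE 0.045) and Huwe1 rose by 0.17 (SE 0.031). Of 6 RNAs known to be bound by Igf2bp proteins, 4 fell (66.7%, against 34.0% of all tested genes) and 1 rose (16.7%, against 34.5%). Actb fell by 1.16 (SE 0.023), Cd44 by 1.40 (SE 0.15) and H19 by 1.05 (SE 0.054), Myc fell as given above, Ptp4a1 rose by 0.34 (SE 0.050), and Igf2, at 2390 ± 33.1 CPM in KO and 2440 ± 37.4 CPM in WT (SD, n = 3 each), did not pass. Igf2 and Ptp4a1 are given because they complete this list, a choice made after their values were seen. Of the exon length of Ptp4a1, 70.8% is overlapped on the same strand by another gene entry of that name. For Igf2, 62.8% is overlapped on the same strand by Gm49394. Reads there may be shared between the entries, so the levels of Ptp4a1 and Igf2 are uncertain.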

How the data were processed

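RNA-seq of 3 KO and 3 WT samples was analysed from the deposited counts of reads per Ensembl gene, 1 table per library. The authors' reads were aligned to mm10 with HISAT2 2.1.0 and counted with HTSeq 0.9.1, and DESeq2 1.18.1 is also named, per the submitters' processing notes. The strand setting and annotation release are not given in the sources used here, so reads of overlapping genes on opposite strands cannot be told apart. Tallies of unassigned reads (no feature, 42.3 to 43.5% of reads; not unique, 13.8 to 15.0%) were left out, and 36.0 to 38.4% of reads were assigned to genes.

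Symbols, exon lengths and 3′ UTRs came from GENCODE M21 (GRCm38, which is mm10), which matched 52403 of 52636 identifiers. Low genes were removed with filterByExpr (minimum count 10), and the rest were scaled by TMM and tested with edgeR 4.0.16 (quasi-likelihood, KO against WT, R 4.3.3), with Benjamini-Hochberg adjustment over all 15816 genes and a threshold of 0.05. The biological coefficient of variation was 6.08%. The procedure was tested on simulated data. Levels between genes were compared as CPM per kilobase of merged exons. The members and gene lists were chosen with earlier results of these data known. Named genes are all members and paralogs, and up to 4 tested genes of each list with the smallest adjusted p, and others are marked where chosen after their values were seen. No 2 libraries of a group agreed within sampling noise. Alternatives were DESeq2 1.42.0, RLE and upper-quartile scaling, other count filters, a replicate block and leaving out each library. Counts and medians of each list cover all its tested genes, also those not named.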

Additional observations from a re-analysis of the deposited data

How the results depend on the processing

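Of 648 values of 54 named genes under the alternatives, 633 kept their direction and their side of the threshold. Igf2bp3 turned to 0.020 with upper-quartile scaling (edgeR adjusted p = 0.720) and lay between -0.043 and 0.021 with 1 library left out, turning positive without KO replicate 2 (adjusted p = 0.730). Upper-quartile scaling also turned Igf2 to 0.0069. The Drosha, Ago2, Tnrc6c and Tent2 calls that moved when a library was left out are given above. The number of genes called was 10848, against 9923 with DESeq2 and 10359 to 10585 with 1 library left out, and the members that fell numbered 2 with upper-quartile scaling and 3 to 4 with 1 library left out. Upper-quartile scaling moved the median of all genes to 0.05 and that of the genes with an 8-base let-7 match to 0.065. Without a filter, 13 host transcripts and hairpin genes of microRNAs were tested and their median was -1.32. Without division by exon length, the KO minus WT difference in share was 5.20 percentage points for Lin28a, -5.20 for Lin28b and 2.72 for Ago4, against 2.50, -2.50 and 4.80 with it.

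No pairing of the samples by replicate number was seen, although correlations over all genes cannot show whether same-numbered samples shared a culture. Correlations of same-numbered KO and WT deviations were 0.0133, 0.00486 and -0.0131, and KO replicate 3 correlated best with WT replicate 2 (0.0189). With the replicate number as a block, 10862 genes were called (5465 higher, 5397 lower), Ago2 passed at -0.09 (edgeR adjusted p = 0.0474) and Tent2 at 0.13 (edgeR adjusted p = 0.0480). Depth limits Lin28b most among the tested members, with 127 to 167 counts in KO libraries and 258 to 280 in WT libraries.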
